A study of Mus musculus with 136 samples.

Results

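Small nucleolar RNA (snoRNA) genes were followed in RNA of mouse macrophages, attached to chromatin or selected by its polyA tail. The genes were all those of the deposited table whose symbol starts with Snord or Snora followed by a digit, 104 of 15196 genes. Of these, 68 carry a Snord name, given to box C/D snoRNAs, and 36 a Snora name, given to box H/ACA snoRNAs. None was chosen by its measured level.

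The study asked how the NF-kB subunit p50, the product of Nfkb1, and the nuclear IkB proteins act in macrophages given lipid A, the endotoxin moiety sensed by TLR4. The cells were bone marrow-derived macrophages (BMDM) from C57 mice, grown for 6 days with 8% M-CSF, the growth factor that drives marrow cells to macrophages. In 113 libraries the labelled molecule was nuclear RNA, here called chromatin libraries. They comprised an Nfkb1-/- and an Nfkbid-/- series of 30 libraries each, with 3 replicates of knockout and wild type, and an Nfkbiz-/- and a Bcl3-/- series of 20 libraries each, with 2 replicates. Each of these 4 series had its own wild type and was sampled at 0, 0.5, 1, 2 and 6 h of lipid A. A TNFa series of 5 libraries at the same times and an ERK inhibitor series of 8 libraries (DMSO or ERKi pretreatment, then lipid A for 0, 15, 30 or 60 min) had 1 library per condition. PolyA RNA was the labelled molecule in 23 libraries. These were 9 wild-type BMDM libraries given lipid A or TNFa (the mRNA series), 6 BMDM libraries labelled Control or IkBz OE at 0 h, 2 h of TNFa or 2 h of lipid A, and 8 libraries of cells labelled J2 BMDM. The J2 cells were wild type, Nfkb1-/- or Nfkb1-/- Nfkb2-/-, at 0 and 2 h of lipid A, with 2 replicates of the double knockout and 1 library of each other condition. The labels' extraction text describes chromatin RNA for these 23 libraries too. No label says whether replicates came from separate mice, so a p-value here measures the spread between these libraries.

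snoRNAs are short stable RNAs that sit with a fixed set of proteins in the nucleolus and guide the chemical modification of ribosomal RNA. Box C/D snoRNAs direct 2′-O-methylation with the enzyme fibrillarin, and box H/ACA snoRNAs direct pseudouridylation with dyskerin, while a few are needed to cut the ribosomal RNA precursor. In mammals most lie in introns of other genes, many of which code for ribosomal proteins or for long noncoding RNAs named Snhg (snoRNA host gene), and are trimmed out of the spliced intron. Reads over a snoRNA gene can therefore come from the finished snoRNA or from the unspliced host transcript.

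The sequences below are those of members on which the results turn: the abundant members in chromatin (Snord17, Snord15a, Snord22 and Snora23), a member high in the Control and J2 polyA libraries (Snora65), and members that changed with lipid A (Snord53, Snord92, Snord12, Snord49a, Snord65 and Snord19). They were taken from GENCODE M21 (GRCm38) by gene symbol, run 5′ to 3′ and are written as DNA. In Snord genes the capitals mark TGATGA, the core of box C, within the first 15 bases and CTGA, box D, within the last 15. In Snora genes they mark the ACA that stands 3 bases before the end.
Snord17: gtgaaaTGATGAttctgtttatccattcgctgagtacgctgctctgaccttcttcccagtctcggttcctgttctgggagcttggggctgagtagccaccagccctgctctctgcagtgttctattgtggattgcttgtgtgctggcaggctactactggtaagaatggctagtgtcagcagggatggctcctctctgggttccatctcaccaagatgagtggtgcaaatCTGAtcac
Snord15a: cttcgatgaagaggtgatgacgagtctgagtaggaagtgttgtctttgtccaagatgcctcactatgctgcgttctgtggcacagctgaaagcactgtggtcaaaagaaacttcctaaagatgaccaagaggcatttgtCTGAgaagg
Snord22: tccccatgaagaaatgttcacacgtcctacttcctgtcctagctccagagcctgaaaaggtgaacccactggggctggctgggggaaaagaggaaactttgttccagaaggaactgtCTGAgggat
Snora23: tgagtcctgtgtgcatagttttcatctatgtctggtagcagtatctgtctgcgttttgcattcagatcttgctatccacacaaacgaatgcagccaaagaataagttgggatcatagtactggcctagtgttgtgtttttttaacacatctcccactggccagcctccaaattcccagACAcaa
Snora65: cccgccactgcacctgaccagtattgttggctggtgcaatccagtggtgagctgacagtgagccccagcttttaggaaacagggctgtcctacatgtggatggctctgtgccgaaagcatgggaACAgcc
Snord53: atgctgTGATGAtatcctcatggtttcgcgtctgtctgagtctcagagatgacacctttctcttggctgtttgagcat
Snord92: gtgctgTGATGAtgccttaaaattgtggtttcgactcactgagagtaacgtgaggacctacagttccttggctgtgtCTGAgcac
Snord12: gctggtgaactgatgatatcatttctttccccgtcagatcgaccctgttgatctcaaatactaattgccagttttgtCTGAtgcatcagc
Snord49a: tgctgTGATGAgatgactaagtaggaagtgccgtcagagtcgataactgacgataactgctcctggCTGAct
Snord65: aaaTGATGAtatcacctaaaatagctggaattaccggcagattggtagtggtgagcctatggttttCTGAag
Snord19: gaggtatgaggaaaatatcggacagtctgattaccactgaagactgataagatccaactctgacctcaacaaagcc

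All 104 members had a GENCODE transcript of the same symbol. Only the transcribed strand was searched. TGATGA lay in the first 15 bases of 37 of the 68 Snord genes (54.4%), in 0 of the 36 Snora genes and in 0.404% of 9166 other GENCODE transcripts of 50 to 300 bases. CTGA lay in the last 15 bases of 61 Snord genes (89.7%), 2 Snora genes (5.56%) and 7.18% of the other transcripts. ACA stood 3 bases before the end of 30 Snora genes (83.3%), of no Snord gene and of 2.11% of the other transcripts. Snord15a, Snord22 and Snord12 thus show box D and no TGATGA in that window, Snord53 shows TGATGA and no CTGA, and Snord19 shows neither. GENCODE places 83 members in introns and 17 in exons of another gene. Of the members, 31 lie in ribosomal protein genes and 13 in Snhg genes, and the host of 69 is itself in the table. Snord116l1 and Snord116l2 have the same sequence and the same values, and Snord1b and Snord1c share 64.29% of the 20-base words of the shorter, so their reads may not be separable.

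RPKM means reads per kilobase of gene length per 1000000 reads (M). Because RPKM values of low genes are whole multiples of 1 read, the reads behind each value could be recovered: depth was 7.856 to 45.32 M in chromatin libraries and 8.757 to 63.07 M in polyA libraries. A snoRNA gene is so short that 1 read over 70 bases is worth 0.3152 to 1.818 RPKM in a chromatin library. The median member was supported by 12 reads per library in wild-type chromatin at 0 h, and 8 members had at most 1 read in the median library. Macrophage markers summed to 30.2 to 71.2 RPKM in 9 of the 10 wild-type libraries at 0 h, while neutrophil, lymphocyte, dendritic, mast cell, erythroid and stromal markers summed to at most 0.684 each. Replicate 1 of the Nfkbid series, 10 libraries of both genotypes, stood apart. Its Malat1, a nuclear long noncoding RNA, was at 6.917 to 19.38 RPKM against 229.6 to 2863 in the other chromatin libraries. Its Rmrp, the RNA of a nucleolar endonuclease, was at 0.0931 to 0.6734 RPKM against 328.1 to 50170. In its wild-type library at 0 h macrophage markers summed to 1468 RPKM, neutrophil markers to 30.3, stromal markers to 2.74 and dendritic markers to 0.256, all above the other 9 libraries. Most of the macrophage sum was Lyz2, at 1053 RPKM, and Cd14, at 236.8. Mertk went the other way, at 0.531 RPKM against 1.35 to 4.83 in the other 9. The part of other cell types in the values of this library was not tested. Results that include these libraries are given with and without them. Over their whole spans, Nfkb1 and Bcl3 RNA were not lower in the libraries labelled as their knockouts (medians over all times of 7.92 RPKM against 7.77 in wild type for Nfkb1, and 17.5 against 9.07 for Bcl3), while neither Nfkbid nor Nfkbiz was analysed here, so these values do not check the genotype labels.

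The snoRNA population on chromatin was very uneven. Snord17 (chr2:144091718-144091938 in mm9), a long box C/D snoRNA in an intron of Snx5, was at 478 RPKM in the lowest, 1410 in the median and 2451 in the highest of 9 wild-type chromatin libraries at 0 h (mean 1432 ± 616.5, SD, n = 9, without replicate 1 of the Nfkbid series). Snora74a, a box H/ACA snoRNA in an intron of Snhg4, followed at 123.5, 297.9 and 481.1 RPKM. The Rps3 introns hold Snord15a (chr7:106631295-106631442) at 86.59, 170.8 and 404.1 RPKM and Snord15b (chr7:106628073-106628217) at 51.41, 157.1 and 262 RPKM. Snord22 (chr19:8800356-8800481), a box C/D snoRNA of Snhg1 needed to process the RNA of the small ribosomal subunit, was at 48.69, 123.6 and 297.2 RPKM. These 5 were the only members with a median over 100 RPKM, and Snord17 was the highest of them in each of the 9 libraries. The ranges of neighbours in this order overlapped. Snord43, Snord2, Snora61, Snora23, Snora24 and Snord71 came next, with medians of 19.3 to 37.6 RPKM. In the Nfkbid replicate 1 library of the same condition the 5 leading members were at 0.449, 0.502, 0.168, 1.03 and 1.77 RPKM, far below the range of the other 9 libraries in each case.

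The abundant members were long. Members of up to 100 bases in GENCODE, 58 in all, had a median of 4.98 RPKM (0.365 to 29.3), and 39 members of over 100 and up to 140 bases had one of 4.65 RPKM (0.276 to 123.6). The 7 members over 140 bases had a median of 157.1 RPKM, with a range of 1.00 to 1410 that takes in low members as well. Across all 104 members, Spearman's rho of length and level was 0.17, and it was 0.080 over the 97 members of up to 140 bases, so the relation was that of a few long RNAs. These points share libraries, and the longer members are also measured from more reads.

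Set beside the gene that holds them, most members stood close to the host. For 63 members the host was in the table at 1 RPKM or more at 0 h, and the median ratio of member to host RPKM was 1.83. Among members of up to 100 bases with such a host, 34 of 36 had a ratio between 0.5 and 4, so that the value of the short member was near that of its host's whole span. Only 4 ratios exceeded 10. They were 22.2 for Snora74a over Snhg4, 16.1 for Snord22 over Snhg1, 14.3 for Snord15a and 13.2 for Snord15b over Rps3. Host spans include introns and exons, and whether reads over a member came from the snoRNA or from its host cannot be told apart in these values.

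**Figure D1:**
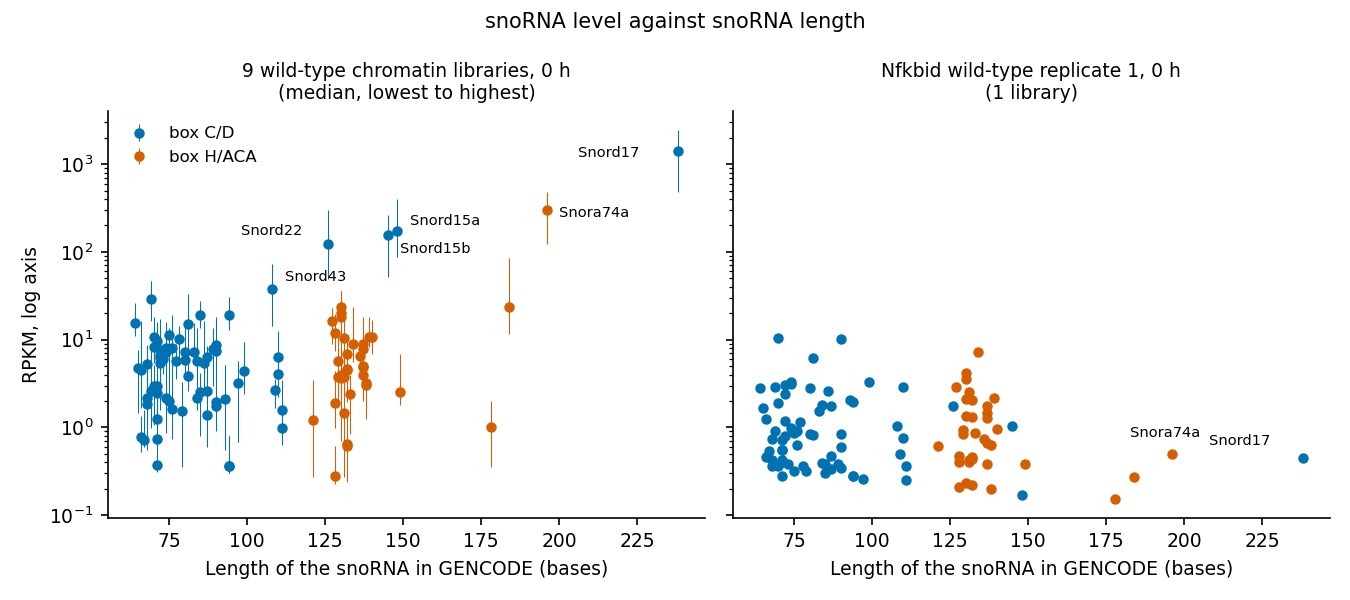
RPKM (log axis) of each of the 104 snoRNA genes against its GENCODE length in bases, for box C/D (blue) and box H/ACA (orange). Points at left are medians of 9 wild-type chromatin libraries at 0 h with a line from the lowest to the highest library, and at right the single library of Nfkbid wild-type replicate 1. Snord17, at 1410 RPKM, tops the left panel and is at 0.449 RPKM in the right one.

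The RPKM of each member in chromatin was set beside that in RNA selected by its polyA tail, which finished snoRNAs lack. RPKM is relative to the reads of each library and the fractions were not brought to a common scale. The values therefore do not give the part of a member that carries a tail. Snord17 was at 0.744 RPKM in the polyA Control library at 0 h, 11.3 in the mRNA series and 2.24 in J2 cells, against the chromatin range of 478 to 2451. Snord15a was at 0.371, 3.25 and 1.23 RPKM in the same 3 libraries. Snord22 was less reduced, at 11.03, 17.5 and 34.2 RPKM, and thus the highest of the 5 leading members in each polyA library. At the other end, Snora65 (chr2:32818821-32818938), a box H/ACA snoRNA of Rpl12, was at 22.3 RPKM in the Control library and 54.6 in J2 cells, above its range of 0.693 to 6.85 in the 9 wild-type chromatin libraries of the knockout series, and at 1.63 in the mRNA series. Chromatin of the single-library series was higher, at 12.5 RPKM in the TNFa series at 0 h and 26.5 in the DMSO library of the ERK series at 0 min, so the Control value lay within the span of all unstimulated chromatin libraries.

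A member was counted as separated between fractions if both BMDM polyA libraries of a time (Control and mRNA series) lay below every wild-type chromatin library, each of these with over 1 read, or lay above them with at least 1 RPKM. At 0 h, 0 of 104 members were lower and 0 higher over all 10 chromatin libraries, where 0.191% and 33.3% of all genes and 0.816% and 2.12% of 613 other genes with spans under 300 bases were. Without replicate 1 of the Nfkbid series, 32 members were lower (15 box C/D and 17 box H/ACA; 30.8%), against 1.7% of all genes and 12.6% of the other short genes. None was higher, against 34.9% and 3.92%. At 2 h of lipid A 3 members were lower over all libraries (Snora62, Snora31 and Snord23, named for this count after their values were seen), against 0.165% and 1.31%, and 32 without those of replicate 1, against 1.36% and 10.9%. None was higher at 2 h, either over all libraries or without replicate 1. The members that were lower at both times without it include Snord17, Snord15a, Snord15b, Snora74a, Snord22, Snord43, Snord2, Snord53, Snora23 and Snora24. Longer spliced genes are scaled by other lengths in the polyA libraries, so the share over all genes is not on the same scale. Fraction and series change together here and cannot be told apart.

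The polyA sets did not rank the members alike. Spearman's rho over the 104 members was 0.92 between the Control and J2 libraries at 0 h and 0.45 between the Control library and the mRNA series. The 5 members with the highest median over BMDM polyA libraries were all box C/D and owed it to the mRNA series, and 4 of them are given here. Snord49a (chr11:62416962-62417023), in an intron of the noncoding gene 2410006H16Rik, was at 62.0 RPKM in that series at 0 h and at 5.01 in the Control library. Snord83b of Rpl3 was at 52.4 and 9.73 RPKM, Snord82 of Ncl at 32.5 and 0.269, and Snord32a of Rpl13a at 28.5 and 5.42. The same series gave no reads for 28 to 57 of the 104 members, depending on the library. Ranks in the Control library had a rho of 0.80 with those in the Nfkbid replicate 1 library at 0 h and of 0.51 with those of the median over the other 9 chromatin libraries.

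**Figure D2:**
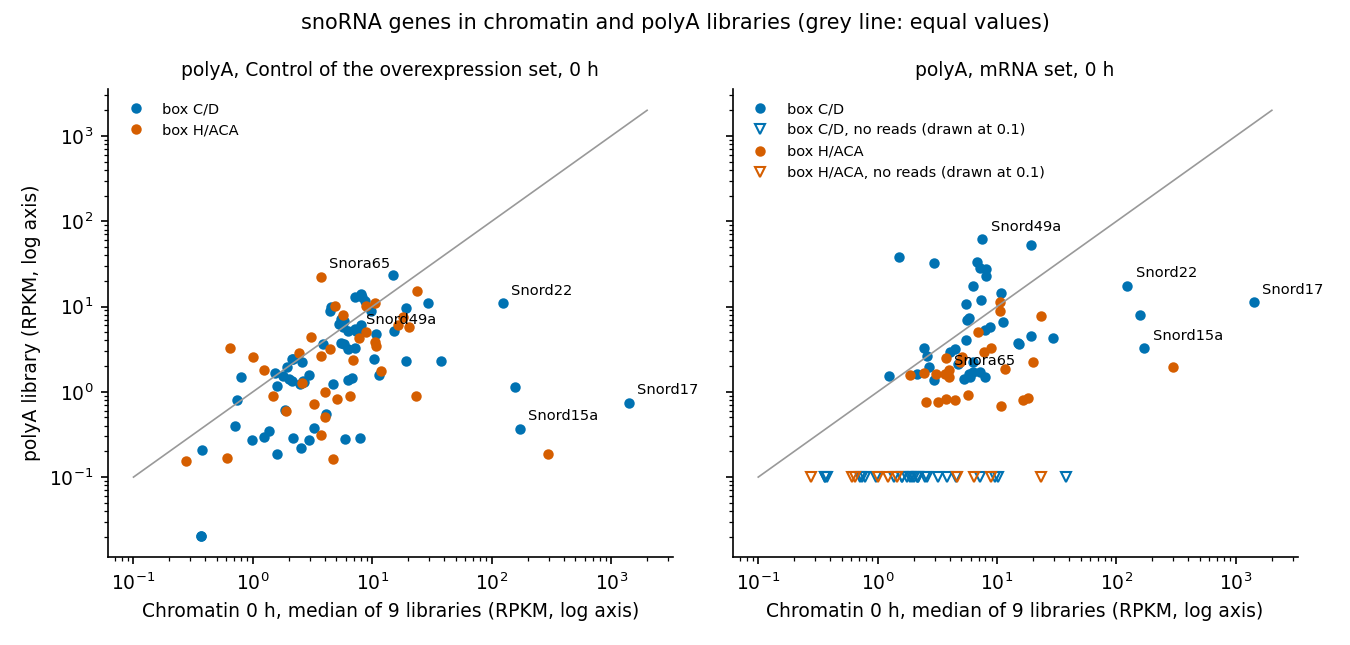
Each of the 104 snoRNA genes by its median RPKM in 9 wild-type chromatin libraries at 0 h (x axis) and its RPKM in 1 polyA library at 0 h (y axis), the Control library at left and the mRNA series at right, all on log axes. Box C/D genes are blue and box H/ACA genes orange, triangles mark genes without reads drawn at 0.1, and the grey line marks equal values. Snord17, at 0.744 and 11.3 RPKM in the polyA libraries, lies far under the line, while Snora65 lies above it at left and Snord49a above it at right.

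The median snoRNA gene differed more between replicates than the median gene. The median member had a residual SD of log2(RPKM + 0.5) of 0.69 for Nfkb1, 0.48 for Nfkbiz, 0.58 for Bcl3 and 1.22 for Nfkbid, the last being 0.67 without its replicate 1. All genes tested had medians of 0.41, 0.19, 0.32, 0.74 and 0.30 in the same order, and other genes with spans under 300 bases had 0.50, 0.44, 0.50, 0.95 and 0.51. Members with under 10 reads had a median SD of 0.989 to 1.95 times the counting SD across the 4 series. The 6 members with 100 reads or more differed between replicates by 7.13 to 18.6 times their counting SD. Snord17 is the extreme case, with 7503 reads in the mean library of the Nfkbid series and an SD of 6.35 there, against 0.38 without replicate 1. At this depth the spread of members with few reads was close to counting error outside the Nfkbid series.

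**Figure D3:**
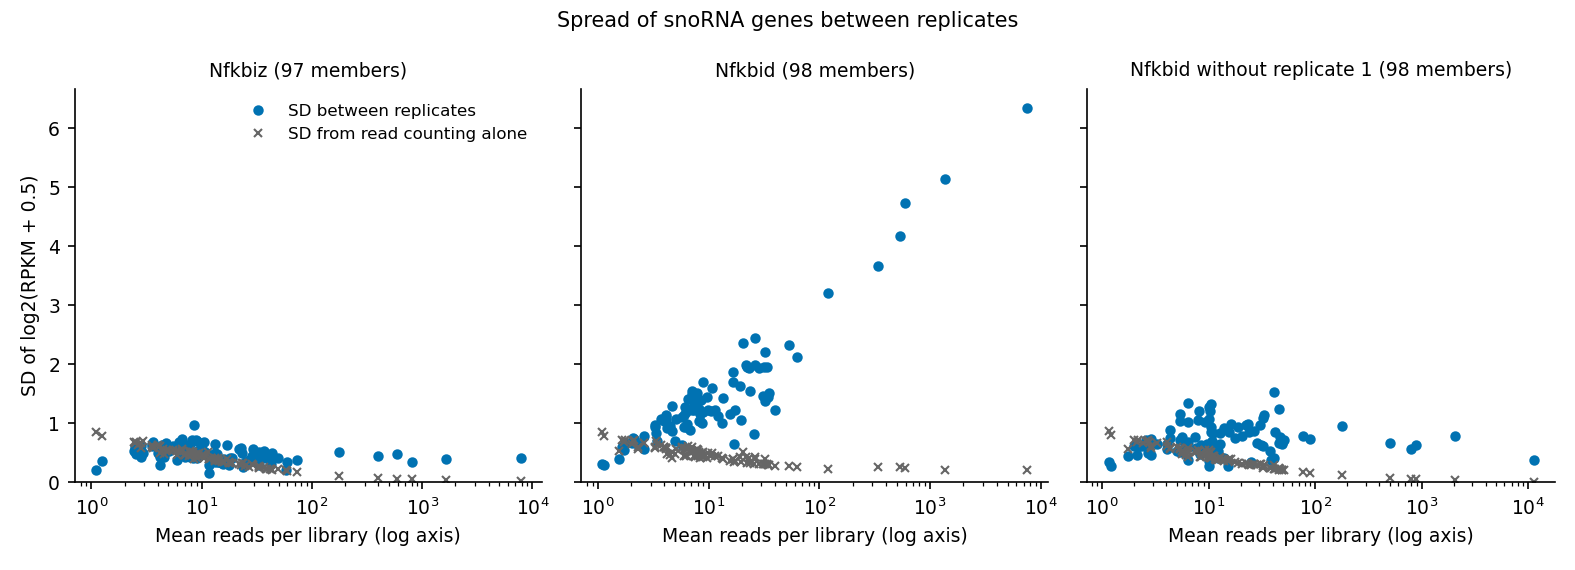
SD of log2(RPKM + 0.5) between replicates (blue points) and the SD that read counting alone gives (grey crosses) for each snoRNA gene, against its mean reads per library on a log axis, in the Nfkbiz series, the Nfkbid series and the Nfkbid series without replicate 1. In the middle panel the SD rises with the reads, up to 6.35 for Snord17, and without replicate 1 the same gene is at 0.38.

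Lipid A changed few snoRNA genes, mostly at 2 and 6 h, and mostly downwards as long as libraries were not centred on their medians. The 50 wild-type libraries of the 4 series were fitted together with limma, each time against 0 h, over 4260 genes that reached 1 RPKM in at least 10 libraries. Of the 104 members 96 were tested, and Snora35, Snord64, Snord93, Snora41, Snord123, Snord116l1, Snord116l2 and Snora19 were too low. A gene counted as changed at an adjusted p (Benjamini-Hochberg over all genes tested) under 0.05 and at least 2-fold. At 0.5 h 1 member was lower and 0 higher, where 16.4% of all genes were lower and 6.17% higher. At 1 h the members were 1 and 0, against 17.9% and 7%. At 2 h 7 members were lower and 3 higher, against 20% and 10.6%, and at 6 h 11 were lower and 1 higher, against 14.9% and 9.65%. The members' shares were under the background in both directions at each time in this fit, but at 6 h not without the Nfkbid series (13 of 96 members lower, 12.3% of genes). Their spread between replicates was wider than that of the median gene, as given above, and its part in this was not tested. Their median change was -0.18, -0.07, -0.18 and -0.45 at the 4 times on the log2(RPKM + 0.5) scale, on which low genes change less than in RPKM, beside -0.48, -0.36, -0.40 and -0.33 for all genes tested. Since all genes shifted downwards, each library was also centred on its median: the members lower and higher were then 0 and 2 (3.29% and 10.8% of all genes), 0 and 1 (6.64% and 11.5%), 4 and 3 (9.91% and 15.5%) and 4 and 2 (7.86% and 13.5%). After centring, the members' median change was 0.28, 0.33, 0.22 and -0.11, beside -0.014, 0.036, -0.003 and 0.003 for all genes. The direction of the members as a set thus depended on the scale. Before centring, 20 members changed at 1 or more times, 16 of them lower and 4 higher. Of these, 18 were box C/D and 2 box H/ACA, where 63 box C/D and 33 box H/ACA members were tested. No share of all genes is given here for a change at any time, and a difference between the box types was not tested. Each of the 24 calls held without replicate 1 of the Nfkbid wild type. That fit, over 3883 genes, had 4 members lower and 0 higher at 0.5 h (19.4% and 7.67% of all genes), 2 and 0 at 1 h (18.8% and 8.11%), 9 and 3 at 2 h (20.6% and 12.2%) and 12 and 1 at 6 h (13.7% and 10.9%).

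The members that rose lie in 3 host genes. Snord53 (chr17:71990229-71990296) and Snord92 (chr17:71980619-71980701) are box C/D snoRNAs in introns of Wdr43, which codes for a nucleolar protein of ribosome assembly. Snord53 was at 5.48 to 14.2 RPKM (median 10.2) in the 9 libraries at 0 h and at 22.3 to 44.7 (median 30.2) at 2 h, with no overlap, and its Nfkbid replicate 1 values were 0.365 and 1.52. Its log2 change at 2 h was 1.59 ± 0.47 (SE; limma adjusted p = 0.00309), and by 6 h it was back at a median of 10.6 RPKM. Snord92 went from a mean of 2.46 ± 1.17 RPKM to 7.44 ± 2.52 at 2 h (SD, n = 9; log2 change 1.33 ± 0.41, limma adjusted p = 0.00466). Wdr43 itself went from 1.56 ± 0.39 to 4.93 ± 0.46 RPKM, a log2 change of 1.40 ± 0.17.

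Snord12 (chr2:166890793-166890858) lies in an exon of the long noncoding RNA Zfas1 in GENCODE. It was at 3.31 to 18.1 RPKM (median 8.69) at 0 h and at 19.4 to 41.3 (median 28.2) at 2 h, again without overlap among the 9 libraries. Its Nfkbid replicate 1 values were 10.2 and 13.7 RPKM, and with them the groups overlapped. The log2 change was 1.62 ± 0.29 (limma adjusted p = 5.16e-06). The level at 6 h, a median of 14.5 RPKM, lay between the 2. Snord89 (chr1:39605592-39605685), in an intron of the noncoding gene Gm15832, rose later. It was at 4.12 to 12.7 RPKM (median 6.29) at 0 h, at a median of 4.71 at 2 h and at 8.52 to 28.0 (median 19.1) at 6 h, where its log2 change was 1.30 ± 0.30 (limma adjusted p = 0.000315). Zfas1 and Gm15832 were not analysed here.

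**Figure D4:**
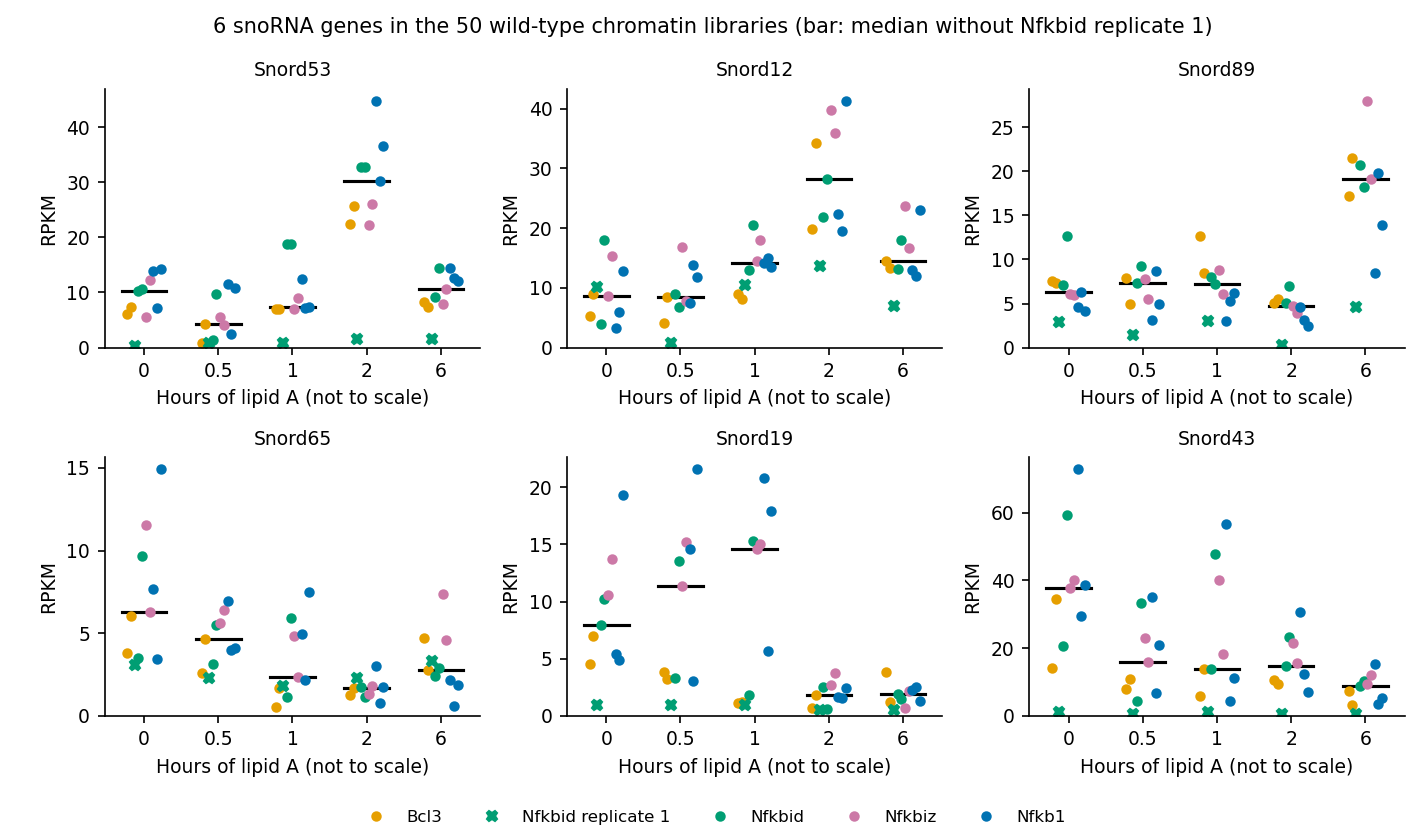
RPKM of 6 snoRNA genes in each of the 50 wild-type chromatin libraries by hours of lipid A (categories, not to scale), with colours for the series, crosses for replicate 1 of the Nfkbid series and bars at the median of the other libraries. Snord53 and Snord12 peak at 2 h, with medians of 30.2 and 28.2 RPKM, Snord89 rises at 6 h, and Snord65, Snord19 and Snord43 fall.

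Members that fell at 2 h shared hosts as well. Snord65 (chr11:62418032-62418088), Snord49a and Snord49b (chr11:62416588-62416650) are 3 box C/D snoRNAs in introns of 2410006H16Rik. Snord65 fell from 3.46 to 14.9 RPKM (median 6.25) at 0 h to 0.750 to 3.05 (median 1.70) at 2 h, without overlap, a log2 change of -1.66 ± 0.30 (limma adjusted p = 4.70e-06), and was the member that had already changed at 1 h, by -1.07. Snord49a changed by -1.54 ± 0.37 and Snord49b by -1.05 ± 0.34 at 2 h. Their host went from 2.87 ± 0.99 to 0.610 ± 0.267 RPKM, a log2 change of -1.59 ± 0.26. Snord19 (chr14:31829405-31829458) and Snord69 (chr14:31827479-31827537) lie in introns of Gnl3, which codes for nucleostemin. Snord19 was at 4.55 to 19.3 RPKM (median 7.98) at 0 h and at 0.605 to 3.77 (median 1.79) at 2 h, and changed by -1.82 ± 0.43 at 2 h and -1.81 ± 0.43 at 6 h. The lowest values of Snord65 and Snord19 at 2 h are worth 1 read, a value that 0 reads shares in chromatin libraries. Snord69 changed by -1.35 and -1.38. Snora36b, a box H/ACA snoRNA of Rab3gap2, went from 4.73 ± 1.84 to 0.839 ± 0.313 RPKM at 2 h (log2 change -1.72 ± 0.33) while Rab3gap2 changed by -2.46 ± 0.20. Snord57 lies in Nop56, which codes for a core protein of box C/D particles, and changed by -1.07 at 2 h and -1.20 at 6 h, beside -1.12 and -1.47 for Nop56. Snord110, also in Nop56, changed less, by -0.35 and -0.58, and did not pass at either time.

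At 6 h the largest fall was that of Snord43 (chr15:79913289-79913336) in Rpl3, from 14.2 to 72.7 RPKM (median 37.6) to 3.29 to 15.4 (median 8.68). The groups met only in that the highest value at 6 h lay above the lowest at 0 h. Its log2 change was -1.98 ± 0.59 (limma adjusted p = 0.00418) beside -1.79 ± 0.33 for Rpl3, which also holds Snord83b, at -1.12 ± 0.46. Snora65 went from 3.68 ± 2.04 to 0.809 ± 0.484 RPKM, a change of -1.47 ± 0.32 beside -1.63 ± 0.31 for Rpl12. Snord99 of Snhg12 changed by -1.57 ± 0.42, where Snhg12 itself changed by -0.67 ± 0.28 and its other members, Snora16a, Snora44 and Snora61, by -0.21 to -0.08. Snord88c of 2410002F23Rik, Snord2 of Eif4a2, Snord1a of 1810032O08Rik and Snord45c of Rabggtb changed by -1.09, -1.08, -1.07 and -1.03. Snora81, also of Eif4a2, went the other way, at 0.39, without passing. Snord88a of 2410002F23Rik and Snord1b and Snord1c of 1810032O08Rik changed by -0.81, -0.89 and -0.66, again without passing. Snord45c was the eleventh by size and is added here after its value was seen. The 1 member lower at 0.5 h was Snord32a of Rpl13a, at -1.05 ± 0.37 beside -0.89 ± 0.34 for its host.

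Members and hosts moved side by side. For 62 members the host was tested too, and at 0.5, 1, 2 and 6 h 52, 48, 52 and 59 of them had the sign of their host. Pearson's r of member and host log2 change was 0.84, 0.84, 0.89 and 0.80 over these 62 pairs, which share libraries and may share reads, since the counting rule is not given in the sources used here. The median difference in size was 0.19 to 0.26. With its sign, the median of member minus host was 0.12, 0.13, 0.17 and 0.25. The change of a member thus lay above that of its host more often than below. At 6 h the median change was -0.49 for these members and -0.80 for their hosts. Of the members that changed and had a tested host, 1, 1, 7 and 6 at the 4 times, each had the sign of its host, and the host had changed too for 0, 1, 7 and 5.

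The 5 most abundant members did not reach 2-fold at any time. Snord17 had estimates of 0.30, 0.47, 0.20 and 0.06 at the 4 times, with an SE of 1.36. Without replicate 1 of the Nfkbid series they were 0.30, 0.52, 0.23 and 0.14, with limma adjusted p from 0.0862 to 0.660. Those errors leave out that libraries of 1 replicate number deviated together across times. Within replicates, Snord17, Snora74a, Snord15a, Snord15b and Snord22 were each higher at 1 h than at 0 h in 8 of 9 replicates, those of the Nfkbid replicate 1 left out. With the replicate number as a block and all 50 libraries, the SE for Snord17 was 0.15 and its estimate at 1 h of 0.47 had a limma adjusted p of 0.00569. In the same fit the estimates at 1 h were 0.60 for Snora74a, 0.42 for Snord15a, 0.54 for Snord15b and 0.70 for Snord22, with limma adjusted p from 0.00515 to 0.0152. These rises at 1 h were thus larger than the spread within replicates and smaller than 2-fold. No share of all genes is given here for the count over replicates or for this fit without the 2-fold rule. Whether the rises are particular to these members can therefore not be told. At 6 h none of the 5 had an adjusted p under 0.05 in that limma fit, and each was higher than its own 0 h value in 5 or 6 of 9 replicates.

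**Figure D5:**
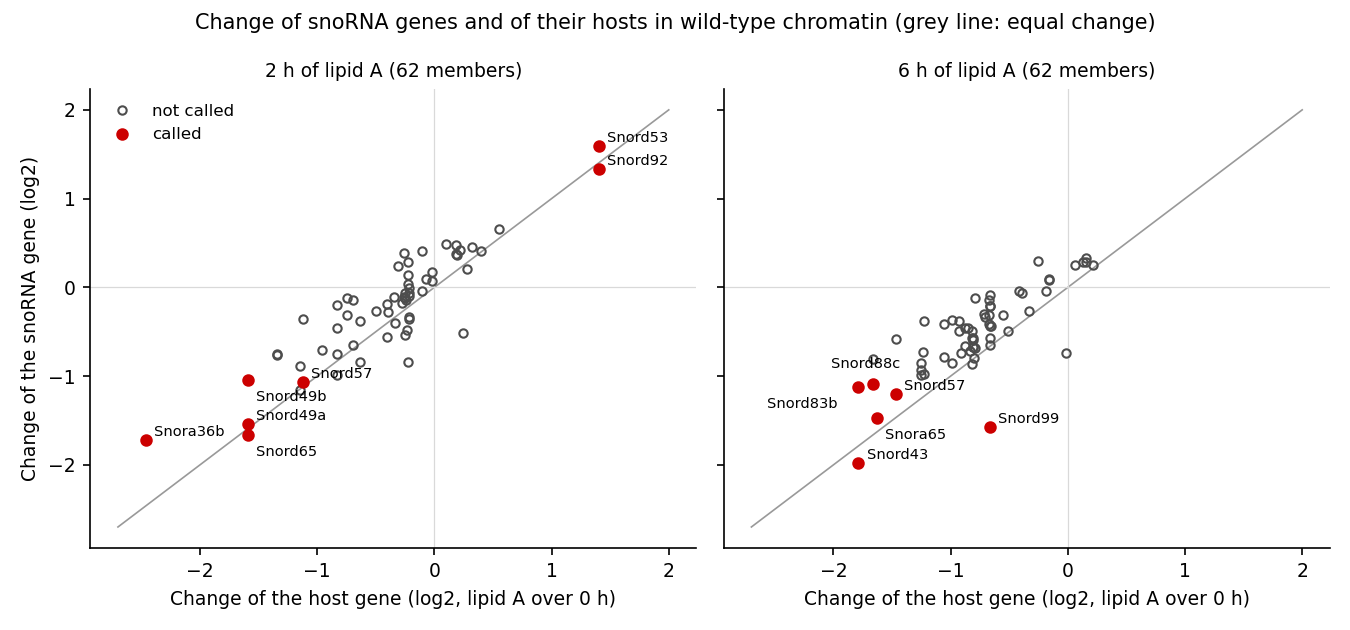
Log2 change of 62 snoRNA genes (y axis) against that of the gene that holds them (x axis) in wild-type chromatin at 2 h (left) and 6 h (right) of lipid A against 0 h. Filled red points are members that passed the test, open points those that did not, and the grey line marks equal change. Points follow the line (r = 0.89 and 0.80) but lie above it more often than below. The median of member minus host is 0.17 and 0.25, and Snord99 at 6 h lies under the line.

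The proteins of the snoRNA particles were taken as a list of their own. Of 9 core proteins 6 were in the table and 2 were tested. At 6 h both were lower: Nop56 by -1.47 ± 0.34 (limma adjusted p = 2.532e-04) and Nop58, its partner in box C/D particles and host of Snord11 and Snord70, by -1.06 ± 0.19 (limma adjusted p = 7.95e-06). At 2 h Nop56 was lower. After centring on the library median Nop56 was lower at 6 h and no longer at 2 h, while Nop58 was not lower at any time and was higher at 0.5 h. Of 16 assembly and processing factors 9 were in the table and 3 were tested. Ruvbl2, a helicase of particle assembly, was lower at 0.5 h (-1.12), a call that was lost after centring. Tgs1, which modifies the cap of small RNAs, was higher at 2 h with and without centring (1.11 ± 0.21 without), and none of the 3 passed at 6 h. The lipid A response itself was present, with Cxcl2, Il1b and Ccl5 higher at all 4 times.

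Knockout was set against wild type within each series and time by limma. In the libraries labelled Nfkb1-/- 0 of 103 members tested passed at any time, where 0%, 0.0663%, 0.597%, 0.376% and 0.221% of 4523 genes were lower at the 5 times and 0%, 0%, 0.0442%, 0% and 0.0884% higher. With the 0.05 threshold put on the unadjusted p instead, 2 members were past it and 2-fold at any time, beside 3.52% of all genes. In the Nfkbid series 0 of 98 members passed, with 0% of 5367 genes called at each time, and 0 at the unadjusted p, beside 0.0186% of genes. In the Bcl3 series 0 of 98 members passed, with 0% of 4740 genes called at each time. At the unadjusted p 16 members were past 2-fold (16.3%), beside 1.16% of genes. At 0.5 h 8 members were higher and 2 lower by this measure, among 16 and 9 of all genes. More members lay above 0 than below at each time. At 0.5 h it was 75 of 98, with a median log2 difference of 0.45 beside -0.13 for all genes. Without replicate 2 of the libraries labelled Bcl3-/- 10 members were lower and 15 higher over the 5 times, beside 11.9% and 0.9% of genes; the knockout then had 1 library per time, taken to vary like the other groups. With the replicate number as a block the count stayed at 0 in these 3 series.

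The members that rose with lipid A were among those that did not pass in any of these 3 series. Snord53 at 2 h was at 37.2 ± 7.26 RPKM in wild type and 36.4 ± 9.03 in the libraries labelled Nfkb1-/- (SD, n = 3), a log2 difference of -0.04 ± 0.59 (SE). In the Bcl3 series it was at 24.0 ± 2.23 and 24.8 ± 7.49 RPKM (n = 2). Snord12 at 2 h was at 27.7 ± 11.9 RPKM in wild type and 34.4 ± 14.2 in the Nfkb1-/- libraries, and at 27.0 ± 10.2 and 28.4 ± 28.8 in the Bcl3 series. Errors of this size leave a 2-fold difference possible for both genes.

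In the Nfkbiz series members were lower in the libraries labelled Nfkbiz-/- late in the course. At 1 h 0 of 97 members were lower or higher (0.553% and 0.123% of 4885 genes), nor were any at 0 or 0.5 h (0% each). At 2 h 1 of 97 members was lower (1.19% of 4885 genes) and at 6 h 10 were (3.62%), with 0 higher (0.184% and 1.84%). The single member at 2 h was Snord89, at 4.71 and 3.97 RPKM in the wild-type libraries and 1.48 and 1.96 in the knockout libraries (log2 difference -1.13 ± 0.25, limma adjusted p = 0.0230). It was lower at 6 h too, at 28.0 and 19.1 RPKM against 10.6 and 12.1, a difference of -1.001 ± 0.247.

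The other 9 members lower at 6 h were box C/D genes apart from Snora3. Snord95 and Snord96a lie in introns of Rack1, which codes for a protein of the small ribosomal subunit. Snord96a was at 9.89 and 11.7 RPKM in wild type and 2.34 and 4.92 in knockout libraries (log2 difference -1.52 ± 0.51), and Snord95 had the largest difference, -1.58 ± 0.45. Snord37 of the elongation factor gene Eef2 was at 14.4 and 15.3 RPKM against 4.54 and 6.50, and Eef2 differed by -0.93 without passing the test. Snora3 of Rpl27a was at 4.12 and 4.58 RPKM against 1.25 and 1.43, and Snord16a of Rpl4 at 5.02 and 4.77 against 2.31 and 1.51, beside host differences of -0.71 and -0.88. Snord82 of Ncl, Snord69 of Gnl3, Snord99 of Snhg12 and Snord72 of Rpl37 differed by -1.52, -1.48, -1.42 and -1.39.

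These differences came with a general shift. At 6 h 84 of 97 members were below 0 and their median was -0.51, beside -0.24 for all genes, and for 64 members with a tested host 56 had its sign (Pearson's r 0.46 across these pairs). After centring on the library median 0 members passed at 6 h, where 1.86% of genes were lower. With the replicate number as a block 13 did (4.07% of genes), and the count was 1 with wild-type replicate 1 left out (1.3% of genes) and 2 with that of the knockout left out (2.67%). It was 9 without wild-type replicate 2 (4.51%) and 8 without knockout replicate 2 (3.04%), the lone library again taken to vary like the other groups. The calls thus rest on 2 libraries a group and on the scale of the libraries.

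The single-library series were described without a test. In the TNFa series at 0 h 39 members lay above all 9 wild-type chromatin libraries and 7 below, and in the DMSO library of the ERK series at 0 min 56 lay above and 9 below. Snord15b was at 1635 and 1785 RPKM there and Snord22 at 1235 and 1610, against at most 262 and 297.2 in the 9 libraries, while Snord17, at 942.4 and 2395, was within their range. Levels between these series and the 4 knockout series are therefore not compared further. Under TNFa for 0, 0.5, 1, 2 and 6 h, Snord53 was at 11.6, 7.54, 16.5, 16.6 and 11.7 RPKM and Snord12 at 12.7, 14.9, 7.08, 13.1 and 8.30, with no peak at 2 h for Snord12. Snord65 was at 23.1, 15.7, 9.84, 12.2 and 4.37 RPKM, highest before TNFa and lowest at 6 h. Snord89 was at 22.9, 39.1, 30.8, 35.0 and 50.3 RPKM, highest at 6 h as with lipid A.

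Snord12, picked here after the values were seen, was also higher after lipid A in the BMDM polyA libraries. It was at 11.6 RPKM in the Control library at 0 h, 39.1 after 2 h of lipid A and 13.4 after 2 h of TNFa, and the cells labelled IkBz OE had 10.1, 36.0 and 13.3. In the mRNA series it was at 5.82 RPKM at 0 h and 6.67, 15.2, 40.4 and 27.7 at 0.5, 1, 2 and 6 h of lipid A, against 9.93, 9.47, 15.1 and 24.7 under TNFa. In J2 wild-type cells it was at 43.5 and 55.3 RPKM at 0 and 2 h, a smaller ratio than in the BMDM sets. Snora65 was at 22.3 RPKM in the Control library at 0 h and 6.01 after 2 h of lipid A, and at 12.5 and 7.26 in IkBz OE cells. It was at 54.6 and 50.3 RPKM in J2 wild-type cells. In the mRNA series it was at 1.63 and 2.83 RPKM, worth 2 and 3 reads, too few to give a direction. Snord53 was at 2.42 and 5.96 RPKM in the Control libraries at 0 and 2 h of lipid A and at 0.984 and 3.73 in IkBz OE cells. It had no reads at 0 h in the mRNA series and 1.64 RPKM at 2 h. In J2 cells it was at 7.29 and 6.71 RPKM in wild type and at 9.55 and 9.65 in Nfkb1-/- cells.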

How the data were processed

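The authors deposited 1 table of RPKM values for 15196 genes in 136 libraries, with gene positions in mm9. The submitters' processing notes name HISAT2, SAMtools and mm9, and the counting rule, its use of strand and tool versions are not given in the sources used here. Labels describe a stranded TruSeq kit. A read over a member may also be counted for its host.

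Values were tested as log2(RPKM + 0.5) with limma 3.58.1 in R 4.3.3 (lmFit, eBayes with trend), checked first on simulated data. The lipid A fit had the series as a term. Each knockout series was fitted with 1 mean per genotype and time, for genes at 1 RPKM or more in at least the group size of libraries. Benjamini-Hochberg adjustment was per time over all genes tested. The other scripts used Python 3.11.15 with pandas 2.3.3 and numpy 2.4.6.

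Reads were recovered as whole multiples of 1 step per library. In chromatin libraries the step was the most common product of RPKM and span over all genes. In polyA libraries it was the value of which the most members were whole multiples. Of the values of up to 30 reads, 97.38% to 100% over all genes in chromatin libraries lay within 0.02 of a whole number. In polyA libraries 93.22% to 97.14% of the members' values did. In chromatin libraries 0 reads and 1 read share a value. Genes with no reads sit at a floor value in the mRNA series, which was set to 0.

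Same-numbered knockout and wild-type libraries deviated together over all genes tested (r of 0.6101 to 0.9178 in the Nfkb1, 0.8851 to 0.9689 in the Nfkbid, 0.447 to 0.7314 in the Nfkbiz and 0.2665 to 0.7609 in the Bcl3 series), so the number was used as a block in an alternative fit. Wild-type libraries of 1 number also deviated together across times (r of 0.1794 to 0.9435). The labels do not say what the numbers share.

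Members named were up to 10 changed in each direction and time or per knockout series by size, the 10 highest in wild-type chromatin, the 5 highest in BMDM polyA libraries, members sharing their hosts, and the hosts. Members and lists were chosen with earlier results of these data known. The spans in the table differ from GENCODE lengths for most members: 87 are shorter, 10 equal and 7 longer.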

Additional observations from a re-analysis of the deposited data

Results flagged for a closer look

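In 53 groups of the 10 wild-type chromatin libraries of a time, values of named members were screened for a single library far from the rest. The cut would mark about 1 in 20 groups of normally distributed values, which RPKM values need not be, and 5 were marked. Each group also holds the Nfkbid replicate 1 library, which stood apart, so the share marked by chance is not known here. Snord22 at 0 h had 297.2 RPKM in Nfkb1 wild-type replicate 3, where the next library had 158.1. Snord88c at 0 h had 4.329 RPKM in Nfkb1 wild-type replicate 1, where the next had 2.532. Snord89 at 0 h had 12.67 RPKM in Nfkbid wild-type replicate 3, where the next had 7.543. The lowest value was that of Nfkbid wild-type replicate 1 for Snord53 at 2 h (1.521 RPKM, next 22.27) and for Snord71 at 0 h (0.3879 RPKM, next 13.63).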

How the results depend on the processing

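Counts of members below are out of 96 tested unless given, with the share of all genes in brackets. Lower at 0.5 h, 1 in the report, became 0 after centring on the median (3.29%) and with a pseudocount of 1 (6.1%), 4 with a pseudocount of 0.1 (30.2%) and without Nfkbid wild-type replicate 1 (19.4%), 4 also with the replicate block added (19.4%), and 2 with the replicate block (16.9%), with voom weights on recovered reads (32.3%) and without the Nfkbid series (17.8%). Lower at 1 h, 1 in the report, became 0 after centring (6.64%), with a pseudocount of 1 (9.2%) and without the Bcl3 series (14.1%), and 2 with a pseudocount of 0.1 (27.5%), without the Nfkbid series (17.6%) and without that replicate 1 (18.8%, and 2 with the block). Centring gave 2 higher at 0.5 h (10.8%) and 1 at 1 h (11.5%) in place of 0, 4 lower at 2 h (9.91%) in place of 7, and 4 lower (7.86%) and 2 higher (13.5%) at 6 h in place of 11 and 1. At 6 h 17 were lower with a pseudocount of 0.1 (22.8%) and 6 without the Nfkb1 series (12.8%), and 2 were higher without the Nfkbid series (11.3%). The members' share was above that of all genes in 3 cases: lower without a filter at 2 h (7 of 104, 6.45%) and 6 h (10 of 104, 5.21%), and lower at 6 h without the Nfkbid series (13 of 96, 12.3%). In the Nfkbiz series the members lower at any time, 10 in the report (4.26%), were 1 after centring (2.56%), 2 without a filter (1.11%) and 4 with a pseudocount of 1 (2.66%). Those lower at 6 h, also 10, were 0 (1.86%), 2 (0.954%) and 4 (2.13%). Leaving out 1 replicate gave 1 to 12 and 1 to 9, with the lone library taken to vary like the other groups. In the Bcl3 series it gave 0 to 10 lower and 0 to 15 higher. The members lower in polyA went from 0 to 32 at 0 h and from 3 to 32 at 2 h without Nfkbid wild-type replicate 1. The replicate block changed no other count by over 1.5 times.

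Of the 24 lipid A calls named, 10 held under every alternative run: Snora36b, Snord12, Snord49a, Snord53 and Snord65 at 2 h, Snord19 at 2 and 6 h, and Snora65, Snord89 and Snord99 at 6 h. None of the 24 was reversed, and of the 10 Nfkbiz calls at 6 h none was reversed and 0 held throughout. Where a call was lost, the cause was not tested. 3 alternatives were added after the data were seen: both fits that leave out Nfkbid replicate 1 with the block, and the handling of genes without reads in the polyA comparison. Scaling polyA and chromatin libraries to their single-exon median was not run, because that median is worth about 1 read. Depth limits most members, whose median has 12 reads in chromatin.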
